A study of Mus musculus with 10 samples.

Results

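Taf1, Taf2, Taf3, Taf5, Taf6, Taf8, Taf10, Taf11 and Taf13 encode subunits of the general transcription factor TFIID. These stand outside its pairs of germline and somatic paralogues such as TAF4B and TAF4, and are not all of its subunits that do. These 9 genes were chosen by gene name from the 55536 genes measured, and all 9 were found and passed the filter on low counts. RNA was sequenced from mouse oocytes, the female germ cells, taken from fetal ovaries at E16.5, late in fetal life, and sorted as live cells by green fluorescence. The 5 Taf4b-heterozygous and 5 Taf4b-deficient libraries came from matings of mice heterozygous for a mutation of Taf4b and homozygous for an Oct4-EGFP transgene, which marks germ cells. Both genotypes are labelled C57BL/6 and female. No wild-type group is used here, and the sources do not describe what the mutation removes from the gene. The design asks how oocyte transcripts differ when TAF4B, a gonad-enriched TFIID subunit, is lost, and the 9 genes encode proteins that TAF4B assembles with.

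TFIID is the factor that recognises core promoters and nucleates assembly of RNA polymerase II at the transcription start site. It is built from the TATA-binding protein TBP and a set of TBP-associated factors, the TAFs, several of which pair through histone folds. TAF5 and TAF6 form the scaffold, TAF1 and TAF2 touch promoter DNA near and downstream of the start site, TAF8 and TAF3 each pair with TAF10, and TAF11 pairs with TAF13. TAF4B can take the place of TAF4 in gonadal cells, and its loss in female mice is known for early depletion of oocytes and infertility.

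The libraries held between 16707216 and 26983565 counts. Each library carries 1 of 3 litter dates. Heterozygous libraries 1 and 2 and deficient library 1 share litter date 1. Heterozygous libraries 3 and 4 and deficient libraries 2 and 3 share litter date 2, and heterozygous library 5 and deficient libraries 4 and 5 share litter date 3. The labels do not tell whether each library is a different embryo. P-values for a difference thus judge it against the scatter among libraries, and some of that scatter may be technical. Values below are given in the order of libraries 1 to 5. Taf4b itself, the gene that defines the groups, had 271, 290.2, 142, 65.7 and 101 CPM (counts scaled to a common library size by the trimmed mean of M-values, TMM) in libraries labelled heterozygous. It had 80.7, 81.7, 80.2, 73.7 and 58.2 CPM in deficient libraries. The library labelled heterozygous 4 lies inside the deficient range, and fold changes, ratios, correlations and the spread are also given without it. Germ cell markers summed to 3920 to 6330 CPM in heterozygous libraries and to 3280 to 5850 CPM in deficient ones, whereas pregranulosa cell markers summed to 29.0 to 76.2 and 25.3 to 77.1 CPM. Erythroid markers reached 719 and 2080 CPM in heterozygous libraries 4 and 5 and 1610 CPM in deficient library 5, against 65.0 to 220 CPM elsewhere. Markers listed for oocyte growth were Sohlh1, Nobox, Lhx8, Figla and Zp3. Their sum reached 602 and 1230 CPM in heterozygous libraries 4 and 5, against 143 to 244 CPM elsewhere. Zp3 had at most 19 counts in a library and was not tested. Each of the 4 tested genes had a lower mean in deficient than in heterozygous libraries.

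The members lie on 8 chromosomes of GRCm38, and each gene's start and end in the files equal those of GENCODE M21. Taf5 lies at chr19:47067746-47083479 on the plus strand and has a single annotated transcript. Taf1, at chrX:101532734-101601789, Taf13, at chr3:108571698-108583222, and Taf5 are on the plus strand. The other 6 are on the minus strand: Taf2 at chr15:55015131-55072152, Taf3 at chr2:9914552-10048596, Taf6 at chr5:138178617-138187451, Taf8 at chr17:47483364-47502292, Taf10 at chr7:105739393-105744361 and Taf11 at chr17:27901122-27909844. Several share exon bases with a gene on the opposite strand. Taf10 shares 2106 of its 4584 exon bases (45.9%) with Ilk, Taf6 shares 1185 bases (26.5%) with Ap4m1, and Taf11 shares 16.2% with an antisense gene and Anks1. The sources used here do not say whether reads were counted by strand, and the counts of these 3 genes are less certain, as are, to a lesser extent, those of Taf3 (7.65% shared) and Taf5 (16 bases, 0.491%). Ilk itself received 9 to 21 counts per library, and Ap4m1 8.66 to 15.2 CPM. Taf1, Taf2, Taf8 and Taf13 share no exon base with another gene.

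Promoter windows of 250 bases before to 50 after the start were found in RefSeq (GRCm38.p6) for 8 of the 9 members, 10 windows in all. Each window was searched on both strands for TATAAA (the TATA box bound by TBP), CCAAT (the NFY box), GGGCGG (the SP factor box), CCGGAAG (an ETS site) and TCTCGCG. The SP box GGGCGG occurred in 8 of the 10 windows and in 35.7% of the 32851 RefSeq windows of that length. CCGGAAG occurred in 4 of 10, against 8.86% of all windows, TATAAA in 4 of 10 against 13.6%, and CCAAT in 3 of 10 against 37.4%. TCTCGCG occurred in 0 of 10 and in 2.56% of all. The member windows held a median of 20 CpG dinucleotides and all windows a median of 7. The 150 bases just upstream of the start are shown for Taf5, Taf10 and Taf1, whose levels were correlated across libraries, and for Taf13, whose level ran opposite to that of Taf1. They are in lower case with motif matches in capitals, read 5′ to 3′ on the gene's strand.
Taf5, chr19:47067598-47067747, plus strand: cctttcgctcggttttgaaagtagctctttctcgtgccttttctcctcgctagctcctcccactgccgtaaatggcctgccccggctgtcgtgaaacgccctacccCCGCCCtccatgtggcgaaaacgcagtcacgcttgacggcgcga
Taf10, chr7:105744339-105744488, minus strand: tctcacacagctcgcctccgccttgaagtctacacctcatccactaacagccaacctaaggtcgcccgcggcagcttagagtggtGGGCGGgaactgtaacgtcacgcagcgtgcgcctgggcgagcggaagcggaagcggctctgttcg
Taf1, chrX:101532585-101532734, plus strand: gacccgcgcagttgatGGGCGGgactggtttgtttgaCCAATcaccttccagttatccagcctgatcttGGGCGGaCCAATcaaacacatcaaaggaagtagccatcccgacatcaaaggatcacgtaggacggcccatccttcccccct
Taf13, chr3:108571549-108571698, plus strand: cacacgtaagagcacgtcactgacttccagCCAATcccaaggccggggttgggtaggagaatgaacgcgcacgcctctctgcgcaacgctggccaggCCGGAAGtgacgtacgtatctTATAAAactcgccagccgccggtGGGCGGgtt
Within the 150 bases shown, Taf1 carried 2 matches of the SP box and 2 of the NFY box. Taf13 alone of these 4 carried TATAAA on the gene's own strand, in the stretch shown, starting 32 bases before the start site, beside 1 match each of the NFY, ETS and SP sequences. In the stretches shown, Taf5 and Taf10 each carried a single SP match, on the minus and plus strand relative to the gene. The full windows held further matches, of TATAAA in Taf5 and of the NFY and ETS sequences in Taf1. A match describes the letters only, and no match overlaps another in these 4 stretches.

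Between the genotypes, Taf5 was the member with the smallest p, higher in each of the 5 deficient libraries than in any heterozygous one. Taf1 and Taf10 also had higher means in deficient oocytes, Taf8 and Taf13 lower ones, and Taf2, Taf3, Taf6 and Taf11 had log2 fold changes between -0.26 and 0.29. By edgeR's quasi-likelihood test with Benjamini-Hochberg adjustment, 0 of 9 members were called at an adjusted p under 0.05, as were 0% of all 19244 tested genes. At an unadjusted p under 0.05 there were 3 of 9 members (Taf1 and Taf5 higher, Taf13 lower), against 16.6% of all genes. The genotypes did not overlap in CPM for 1 of 9 members (Taf5), against 3.53% of all genes. In the authors' deposited table, 1 of 9 members was called (Taf5), against 6.55% of the genes with an adjusted p. DESeq2 on genotype alone also called 1 of 9 (Taf5), against 3.35% of genes, and limma voom with quality weights called 1 of 9 (Taf5), against 2.65%. With the grouping of libraries that rebuilds the authors' fold changes as a covariate, edgeR called 0 of 9 members and 0.54% of genes. Without heterozygous library 1 it called 0 of 9 members and 3.07% of genes. The median log2 fold change, deficient minus heterozygous throughout, was 0.08 over the members (5 positive, 4 negative) and -0.02 over all tested genes. In these bulk libraries, fewer cells of a type and less RNA per cell cannot be told apart.

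**Figure D1:**
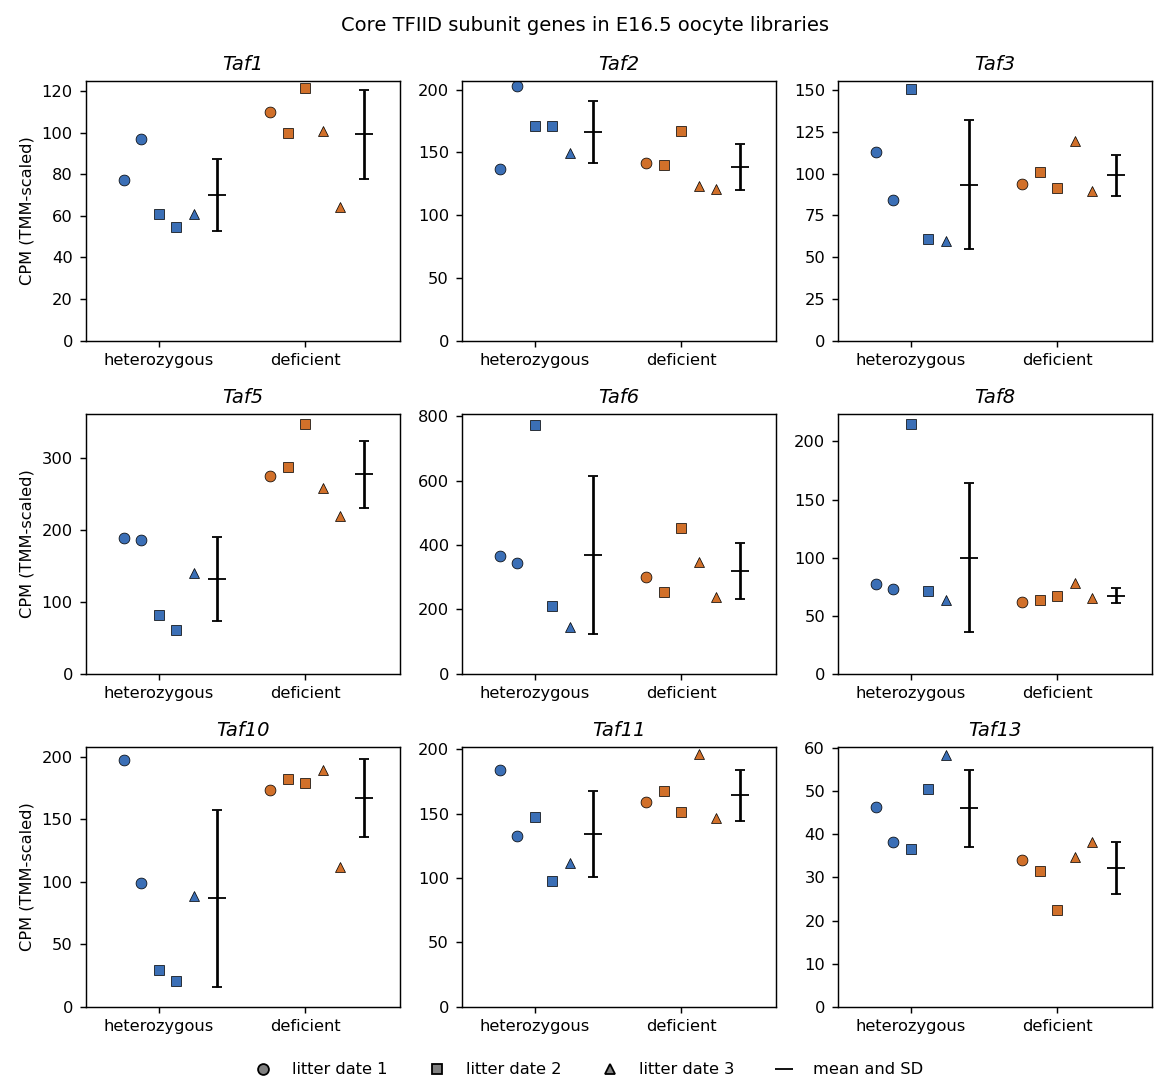
CPM of the 9 genes (vertical axis, linear from 0) in each library by genotype, with the litter date as the marker shape and the mean with its SD beside each group of 5. The deficient libraries lie above all heterozygous ones for Taf5, and heterozygous library 3 stands at 775 CPM for Taf6 and 215 CPM for Taf8.

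TAF5, the WD40-repeat scaffold of the complex, had 189, 186, 82.0, 61.1 and 139 CPM for its transcript in heterozygous libraries. It had 276, 287, 347, 258 and 219.7 CPM in deficient libraries. All deficient values were above all heterozygous ones, and the lowest values were those of heterozygous libraries 3 and 4, both of litter date 2. The means were 132 ± 58.6 and 277 ± 46.4 CPM (SD, n = 5 each), a 2.11-fold difference, with a log2 fold change of 1.08 ± 0.30 (SE; edgeR adjusted p = 0.151). The authors' deposited table gives 0.97 for the same gene, with an SE of 0.27 and an adjusted p of 0.0127. The difference in mean log2 CPM was 0.56 in litter date 1, 2.15 in litter date 2 and 0.77 in litter date 3, so its direction was shared by all 3 dates. Without litter date 2 the log2 fold change was 0.56 (edgeR adjusted p = 0.961), and 0.90 without the library labelled heterozygous 4 (adjusted p = 0.333).

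Taf6, which encodes the histone-fold subunit that pairs with TAF9 beside TAF5, gave 366, 344, 775, 212 and 146 CPM in heterozygous libraries. In deficient libraries it gave 300.5, 254, 453, 346 and 237 CPM. Heterozygous libraries held both the highest value, in library 3, and the lowest, in library 5, and the groups overlapped. Its log2 fold change of -0.21 ± 0.38 (SE; edgeR adjusted p = 0.809) became 0.25 without heterozygous library 3 and -0.36 without the library labelled heterozygous 4. By litter date it was -0.24, -0.26 and 0.97, so no direction was shared.

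TAF1, the largest subunit, binds acetylated histones through bromodomains and contacts the initiator. Its transcript had 77.2, 96.7, 61.0, 54.4 and 60.7 CPM in heterozygous libraries, and 109.9, 99.6, 121, 101 and 64.2 CPM in deficient ones. Of the deficient libraries 4 lay above every heterozygous one, and deficient library 5 lay among them. The means were 70.0 ± 17.2 and 99.1 ± 21.4 CPM (SD, n = 5 each). The log2 fold change was 0.50 ± 0.22 (SE), with adjusted p = 0.270 by edgeR. The differences by litter date were 0.35, 0.93 and 0.40. The log2 fold change was 0.23 without litter date 2 (edgeR adjusted p = 0.973) and 0.42 without the library labelled heterozygous 4 (edgeR adjusted p = 0.469).

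Taf2, whose product resembles an aminopeptidase and binds initiator DNA, had 137, 203, 171, 171 and 149.9 CPM in heterozygous libraries, and 142, 140.3, 167, 123 and 121 CPM in deficient ones. The groups overlapped, with deficient libraries 4 and 5 below every heterozygous one. Its log2 fold change was -0.26 ± 0.17 (SE), the smallest SE of the 9, with an edgeR adjusted p of 0.453, and -0.25 without the library labelled heterozygous 4. The values by litter date were -0.23, -0.16 and -0.30.

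TAF10 is a histone-fold protein of both TFIID and the coactivator complex SAGA. The CPM of Taf10 was 197, 98.7, 29.4, 20.8 and 88.2 in heterozygous libraries. It was 174, 182, 179, 189 and 112 in deficient libraries. Heterozygous libraries 3 and 4 were far below the other 8, heterozygous library 1 was the highest of all 10, and the groups overlapped. The means were 86.9 ± 70.8 and 167 ± 31.4 CPM (SD, n = 5 each), with a log2 fold change of 0.95 ± 0.48 (SE) and an adjusted p of 0.333 by edgeR. The differences by litter date were 0.31, 2.87 and 0.72. The log2 fold change was 0.31 without litter date 2, 0.70 without the library labelled heterozygous 4 and 1.5 without heterozygous library 1. It was 1.86 without litter date 1 and 1.52 with litter date as a covariate (edgeR adjusted p = 0.103). None of these 5 fits called it.

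TAF8, a TAF10 partner that helps bring TAF2 into the complex, showed a different pattern of libraries at the transcript level. Taf8 had 77.1, 73.0, 215, 70.9 and 63.6 CPM in heterozygous libraries, and 62.0, 63.2, 66.6, 78.4 and 65.1 CPM in deficient ones. Heterozygous library 3 alone stood apart, and the other 9 lay between 62.0 and 78.4 CPM. The log2 fold change of -0.57 ± 0.31 (SE, edgeR adjusted p = 0.367) became -0.09 without that library, and was -0.68 without the library labelled heterozygous 4. By litter date the differences were -0.28, -0.93 and 0.17.

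TAF3, which binds trimethylated lysine 4 of histone H3 through a PHD finger, is the other TAF10 partner. Taf3 gave 113, 83.9, 151, 60.6 and 59.4 CPM in heterozygous libraries against 93.5, 101, 91.1, 119 and 89.7 CPM in deficient ones. The deficient values lay inside the heterozygous range. The log2 fold change was 0.08 ± 0.25 (SE, edgeR adjusted p = 0.896), and -0.04 without the library labelled heterozygous 4. By litter date the differences were -0.06, 0.01 and 0.80.

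TAF11 and TAF13 form a histone-fold pair next to TBP. Taf13, with the lowest mean CPM of the 9 genes in each genotype, had 46.3, 38.2, 36.7, 50.6 and 58.4 CPM in heterozygous libraries and 34.0, 31.4, 22.3, 34.8 and 38.2 CPM in deficient ones. Of the deficient libraries 4 lay below every heterozygous one, and deficient library 5 fell among them. The means were 46.0 ± 9.01 and 32.1 ± 6.00 CPM (SD, n = 5 each). The log2 fold change was -0.52 ± 0.20 (SE), with adjusted p = 0.231 by edgeR. It kept a negative sign in every litter date, at -0.31, -0.70 and -0.68, and was -0.41 without litter date 2 and -0.48 without the library labelled heterozygous 4.

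Taf11 had 184, 132, 147, 97.6 and 111 CPM in heterozygous libraries, and 159, 167, 151, 197 and 146 CPM in deficient ones. The groups overlapped, and the highest value was that of deficient library 4. Its log2 fold change was 0.29 ± 0.20 (SE, edgeR adjusted p = 0.471), with differences of 0.03, 0.41 and 0.61 by litter date. It was 0.20 without the library labelled heterozygous 4, 0.49 without litter date 1 and 0.18 without litter date 3. Over the 9 genes, 6 had the same sign in all 3 litter dates, and 4 had it in all 3 levels of the grouping behind the authors' fold changes. The share of all tested genes that did so is not given here, so these counts do not set the members apart. With litter date as a covariate, edgeR called 0 of 9 members and 0 of all 19244 tested genes. The log2 fold change was then 1.3 for Taf5 (edgeR adjusted p = 0.0832), 0.63 for Taf1 (adjusted p = 0.118) and -0.58 for Taf13 (adjusted p = 0.123). Without the library labelled heterozygous 4 the median over the members was -0.04.

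**Figure D2:**
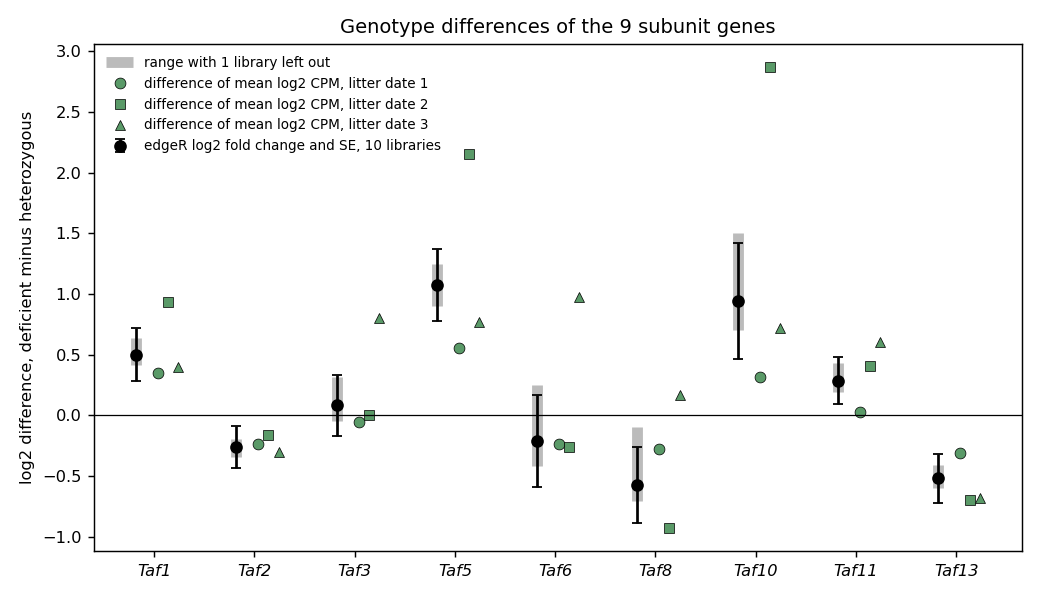
The log2 difference between genotypes (vertical axis, deficient minus heterozygous) for each gene, as the edgeR log2 fold change with its SE (black), its range when 1 library is left out (grey) and the difference of mean log2 CPM within each litter date (green). Litter date 2 gives the largest values for Taf5 (2.15) and Taf10 (2.87), and the litter date values of Taf2 lie between -0.30 and -0.16.

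The spread among libraries was wider in heterozygous than in deficient oocytes for 9 of 9 members, and for 75.1% of all tested genes. The median coefficient of variation of CPM was 41.3% in heterozygous and 16.7% in deficient libraries for the members, and 37.7% and 26.1% for all genes. Without the library labelled heterozygous 4 it was still wider in heterozygous libraries for 9 of 9 members and for 76% of all genes, with a heterozygous median of 33.7% for the members. Set against each gene's median over the 10 libraries, heterozygous library 3 had 4 of 9 members more than 2-fold away. These were Taf8 (1.64 on the log2 scale) and Taf6 (1.27) above the median, and Taf5 (-1.31) and Taf10 (-2.25) below. The library labelled heterozygous 4 had Taf5 (-1.74) and Taf10 (-2.74) beyond 2-fold, heterozygous library 5 had Taf6 (-1.14), and the other 7 libraries had none. Low Taf5 and Taf10 were thus shared by libraries 3 and 4, whereas high Taf6 and Taf8 occurred in library 3 alone. Of all tested genes, 21.3%, 18.3% and 21.9% lay beyond 2-fold in heterozygous libraries 3, 4 and 5, against 4.57% to 7.26% in the others. Erythroid and growth markers were high in heterozygous libraries 4 and 5 as given above, and at 219 and 244 CPM in library 3. Their part in these values was not tested.

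**Figure D3:**
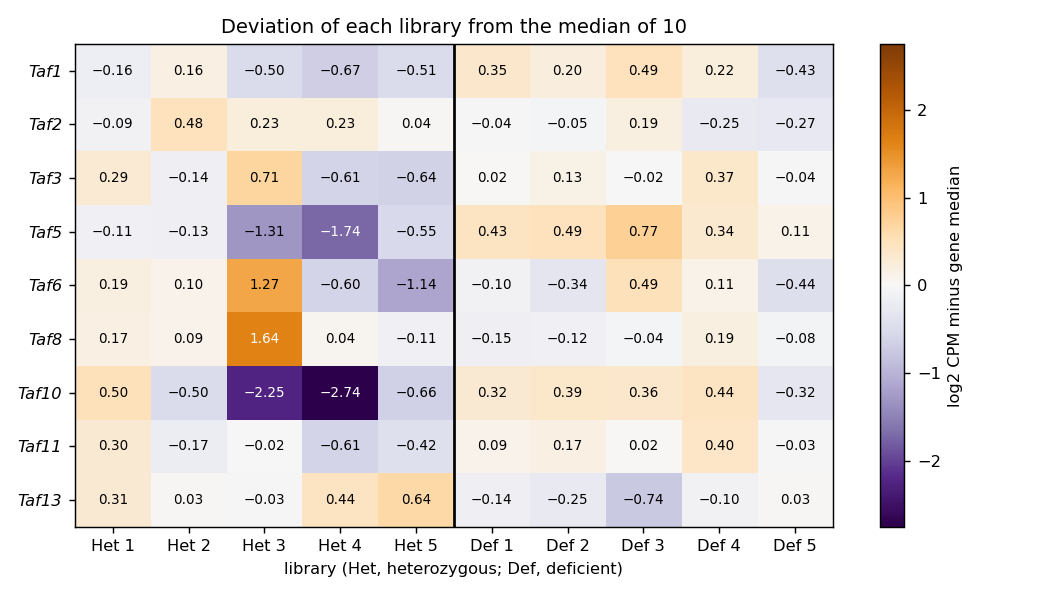
Log2 CPM of each gene minus its median over the 10 libraries (colour and printed value), by library (columns, Het for heterozygous and Def for deficient). Deviations beyond 1 in size occur only in Het 3, Het 4 and Het 5, the lowest being Taf10 in Het 4 at -2.74.

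Levels of different genes were compared per length, on the deposited TPM scale, a length-scaled relative abundance. These TPM values are the deposited counts divided by 1 fixed length per gene and rescaled in each library, since counts per TPM were constant over libraries for 100.0% of 20977 genes, within 0.01 on the log2 scale. They are therefore no second measurement, and they take no account of which transcript is used. In order of median TPM over 10 libraries the genes were Taf6 (80.8, range 45.8 to 187), Taf5 (76.8, 26.4 to 114), Taf10 (38.4, 6.88 to 46.9), Taf11 (33.0, 27.5 to 39.2) and Taf2 (27.1, 20.4 to 40.1). Below them came Taf8 (19.1, 16.0 to 51.1), Taf3 (18.4, 13.7 to 26.6), Taf13 (13.6, 7.57 to 25.3) and Taf1 (13.0, 8.75 to 17.8). Of the 8 pairs of neighbours in this order, 1 differed beyond the spread between libraries. Taf5 exceeded Taf10 in 10 of 10 libraries, by 1.27 ± 0.475 on the log2 TPM scale (SD, n = 10; exact two-sided sign-flip permutation test, p = 0.00195, adjusted over 8 pairs 0.0156). Since Taf10 shares 45.9% of its exon bases with Ilk, its TPM and the size of this difference are less certain. Taf2 exceeded Taf8 in 9 of 10 libraries (exact permutation p = 0.0293, adjusted 0.117). For the other 6 pairs the adjusted p ran from 0.307 to 0.664.

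**Figure D4:**
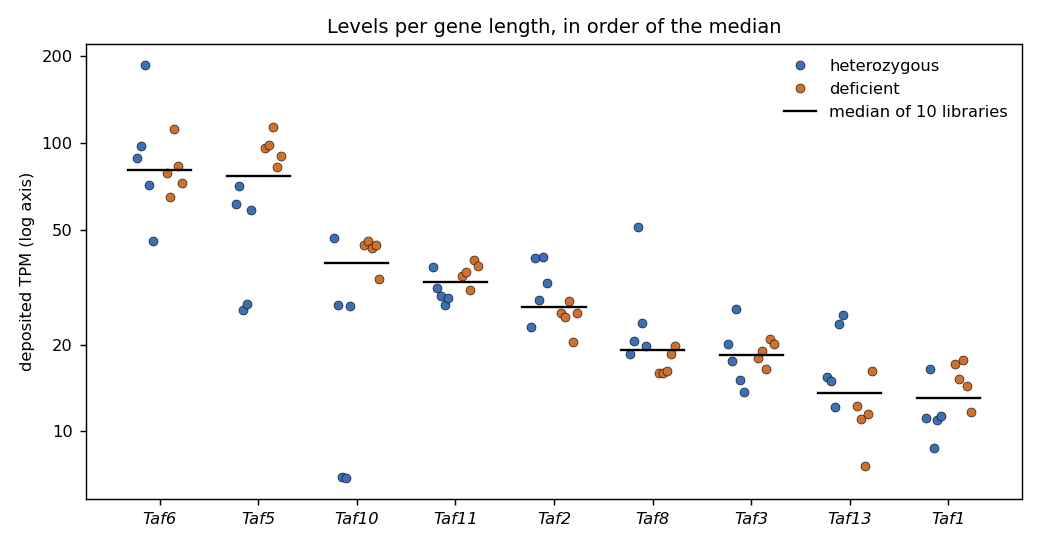
Deposited TPM (vertical log axis) of each gene in each library, heterozygous in blue and deficient in orange, with the median of the 10 libraries as a line, ordered by that median. Taf6 and Taf5 have medians of 80.8 and 76.8 TPM, and the 2 lowest points of Taf10, at 6.93 and 6.88 TPM, are heterozygous libraries 3 and 4.

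The order shifted with the library for some genes and hardly for others. Taf6 ranked 1 or 2 in every library and Taf11 3 or 4, whereas Taf10 ranked 3 or 4 in deficient libraries and anywhere from 3 to 9 in heterozygous ones. In deficient libraries alone Taf5 led (median 96.2 TPM), followed by Taf6 (78.5). The gene lengths bear on the order too. Per kilobase of the longest coding transcript of GENCODE M21, Taf11 (2207 bases of 5495 in its exon union) moved from rank 4 to 2, Taf5 became 3 and Taf10 became 4, and the other 6 kept their ranks.

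Partner subunits were set against each other as log2 ratios of TPM within a library, which cancels the library's own scaling. A two-sided exact permutation test over all assignments of the 10 libraries to 2 genotypes can reach no p below 0.00794. P was adjusted over the 6 ratios. The test takes the 2 genotypes to scatter alike, but the SD was larger in heterozygous than in deficient libraries for all 6 ratios. A small p can therefore reflect the wider heterozygous spread as well as a shift in the mean. The ratio of Taf8 to Taf10 was -1.34, -0.42, 2.88, 1.78 and -0.46 in heterozygous libraries and -1.47, -1.51, -1.41, -1.26 and -0.77 in deficient ones. Libraries 3 and 4 set the heterozygous mean apart, and library 1 lay within the deficient range. The means were 0.49 ± 1.77 and -1.29 ± 0.304 (SD, n = 5 each), a difference of -1.77 (exact permutation p = 0.0238, adjusted 0.0357). By litter date it was -0.59, -3.80 and -0.56, and it was -1.45 without the library labelled heterozygous 4.

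Taf1 to Taf2 differed by 0.76, from -1.49 ± 0.328 in heterozygous to -0.73 ± 0.242 in deficient libraries (SD, n = 5 each; exact permutation p = 0.0159, adjusted 0.0357). In each litter date it was higher in deficient libraries, by 0.58, 1.09 and 0.70. Taf11 to Taf13, the histone-fold pair, rose from 0.81 ± 0.549 to 1.64 ± 0.306 (exact permutation p = 0.0238, adjusted 0.0357, n = 5 each), with 0.34, 1.11 and 1.29 by litter date. Taf3 to Taf8, the alternative partners of TAF10, rose from -0.45 ± 0.406 to 0.13 ± 0.0977 (exact permutation p = 0.0238, adjusted 0.0357, n = 5 each), with 0.22, 0.93 and 0.63 by litter date. The scaffold pair Taf5 to Taf6 rose from -0.97 ± 1.20 to 0.25 ± 0.243 (exact permutation p = 0.0397, adjusted 0.0476, n = 5 each), with 0.79, 2.41 and -0.20 by litter date, so its direction did not hold within litter date 3. It was 0.75 without heterozygous library 3 (exact permutation, adjusted p = 0.0571). Taf3 to Taf10 did not pass, at a difference of -1.20 (exact permutation p = 0.0714, adjusted 0.0714, n = 5 each). Without the library labelled heterozygous 4 the difference was 0.67 for Taf1 to Taf2, 0.69 for Taf11 to Taf13 and 0.52 for Taf3 to Taf8, each with an adjusted p of 0.0476 as for Taf8 to Taf10 (exact permutation). It was then 1.11 for Taf5 to Taf6 (exact permutation, adjusted p = 0.0571) and -0.93 for Taf3 to Taf10. The groups overlapped in all 6 ratios, and ratios that share a gene are not independent of each other. With any 1 deficient library left out, all 5 called ratios missed the threshold (exact permutation, adjusted p from 0.0635 to 0.133), at differences close to those above. Groups of unequal size and spread make a permutation p less certain, here and without the library labelled heterozygous 4. The share of all gene pairs that pass this test is not given here, so the 5 calls do not set these pairs apart from others. Without litter date 2, 3 libraries stood against 3 and no p below 0.1 was possible. The difference was then -0.43 for Taf8 to Taf10 and 0.54 for Taf1 to Taf2.

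**Figure D5:**
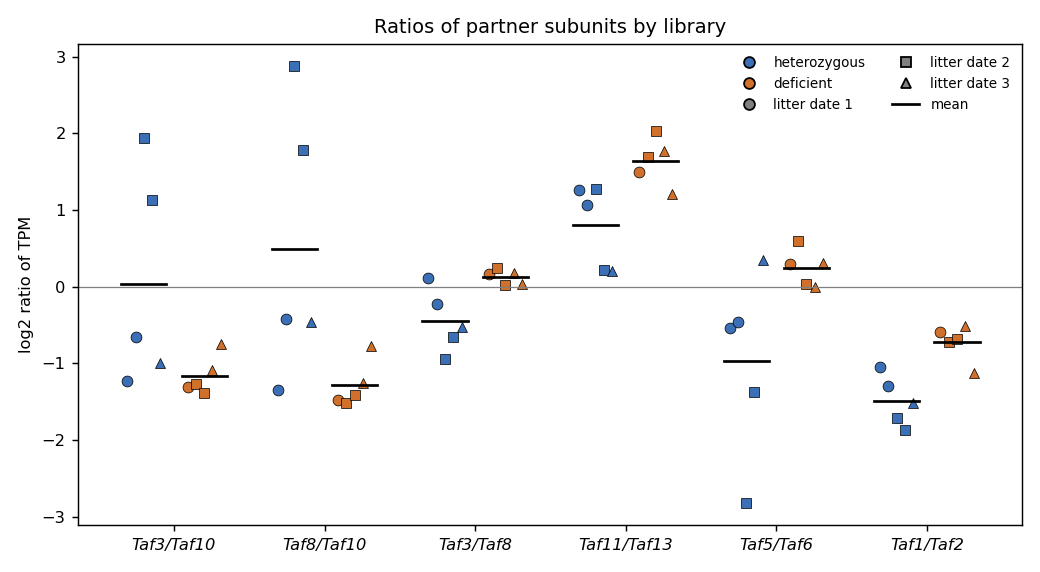
Log2 ratio of TPM of partner subunits (vertical axis) in each library by genotype, with the litter date as the marker shape and the group mean as a line. The highest Taf8/Taf10 values, 2.88 and 1.78, belong to heterozygous libraries 3 and 4 of litter date 2, and deficient values of each ratio lie closer together than heterozygous ones.

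Across the 10 libraries, 36 pairs of members were correlated on log2 CPM, with permutation p-values adjusted over the 36. Pearson's r passed an adjusted p of 0.05 for 6 pairs, 5 positive and 1 negative, and Spearman's rho for 3. These 6 pairs (16.7%) had an r of at least 0.77 in size, as did 9.46% of all pairs among 13667 genes, so such values were common in these libraries. Taf5 and Taf10 had r = 0.95 (permutation p = 0.00035, adjusted 0.00954) and rho = 0.73 (p = 0.0199, adjusted 0.102). Without heterozygous libraries 3 and 4, the farthest from the median, r was 0.72. Taf1 and Taf5 had r = 0.85 (permutation p = 0.00053, adjusted 0.00954) and rho = 0.90 (p = 0.0008, adjusted 0.0148), with r = 0.79 without heterozygous libraries 4 and 5. Taken as deviations from the genotype means, r was 0.94 for the first pair and 0.74 for the second. The likeness was not complete, since Taf10 was highest in heterozygous library 1, where Taf1 and Taf5 lay below their medians.

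Taf1 and Taf13 ran in opposite directions, at r = -0.78 (permutation p = 0.00449, adjusted 0.0323) and rho = -0.87 (p = 0.00225, adjusted 0.027), with r = -0.64 without the 2 farthest libraries. Taf1 and Taf10 had r = 0.77 (permutation p = 0.00435, adjusted 0.0323; rho = 0.69, p = 0.0351, adjusted 0.141; r = 0.68 without the 2 farthest). Taf3 and Taf6 had r = 0.84 (permutation p = 0.00362, adjusted 0.0323; rho = 0.76, p = 0.015, adjusted 0.0899), and r was 0.53 without heterozygous libraries 3 and 5. Taf3 and Taf11 had r = 0.79 (permutation p = 0.00665, adjusted 0.0399; rho = 0.81, p = 0.00701, adjusted 0.0505), and r was 0.996 without the same 2 libraries. By rho alone, Taf10 and Taf11 also passed, at 0.90 (permutation p = 0.00082, adjusted 0.0148), with r = 0.74. As deviations from the genotype means, r shrank to -0.607 for Taf1 and Taf13, 0.615 for Taf1 and Taf10 and 0.615 for Taf10 and Taf11. It was 0.859 for Taf3 and Taf6 and 0.822 for Taf3 and Taf11. Without the library labelled heterozygous 4, r over 9 libraries was 0.90 for Taf5 and Taf10, 0.81 for Taf1 and Taf5, 0.68 for Taf1 and Taf10, -0.74 for Taf1 and Taf13, 0.84 for Taf3 and Taf6, 0.70 for Taf3 and Taf11 and 0.52 for Taf10 and Taf11. Each litter date holds 3 or 4 libraries, too few for a correlation within a date.

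For each member the genes most like it in log2 CPM over the 10 libraries were taken from 13666 genes, as a description. Taf5 was nearest to Ubn1 (r = 0.98), Strn3 (0.98) and Glud1 (0.97), and Taf10 to Suv39h2, Siah1a and Carnmt1 (each 0.99). Taf1 was nearest to Epm2aip1 (0.98), Ptbp3 (0.97) and Zmym4 (0.97), and Taf2 to Trappc11 (0.99), Sema5b (0.98) and Cep120 (0.98). The nearest to Taf3 were Lyrm1, Vps29 and Sdhb (each 0.99), those to Taf6 Mcm6 (0.99), Nup88 (0.98) and Nelfb (0.98), and those to Taf8 Chmp6 (0.99), Rars2 (0.98) and Samm50 (0.98). Taf11 was nearest to Swi5 (0.99), Cox7a1 (0.98) and Ak6 (0.98), and Taf13 to Hmgn2-ps1 (0.95), Smim20 (0.94) and Dhrs7b (0.93). The highest r of Taf13 was thus below that of every other member.

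The remaining genes of the complex and of its neighbours were read from lists. The first list held 10 other genes, those of further TFIID subunits and of the TBP paralogues Tbpl1 and Tbpl2. Of these, 8 were tested and 0 were called by edgeR. At an unadjusted p under 0.05 there were 0 higher and 4 lower, against 7.45% higher and 9.13% lower over all tested genes. These were Taf4b, which defines the groups (-1.22 ± 0.35), Taf9b (-0.49 ± 0.18), Tbp, the TATA-binding protein (-0.42 ± 0.19), and its paralogue Tbpl1 (-0.36 ± 0.16), as log2 fold change ± SE with edgeR adjusted p of 0.155, 0.206, 0.285 and 0.283. The median over the 8 was -0.20. Taf9 and Tbpl2 had at most 10 and 4 counts in a library and were not tested. Taf9 shares its locus with Ak6, which had 141 to 842 counts.

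Of 19 names for genes of SAGA, the coactivator that shares TAF10 with TFIID, 18 were found and tested, and 0 were called by edgeR. At an unadjusted p under 0.05, 1 was higher, Tada2b (0.89 ± 0.27), a subunit of the acetyltransferase module. The 5 lower ones were Supt20 (-0.60 ± 0.23), Taf5l (-0.46 ± 0.18), Kat2a, the acetyltransferase (-0.52 ± 0.21), Tada1 (-0.70 ± 0.29) and Supt7l (-0.36 ± 0.15), and the median of the list was -0.14. Over all tested genes the shares were 7.45% higher and 9.13% lower. Of 17 other basal factor genes, 0 were called, 0 were higher and 3 were lower at an unadjusted p under 0.05, namely Gtf2f1 of TFIIF (-0.58 ± 0.20), Gtf2h4 of TFIIH (-0.43 ± 0.17) and Gtf2b, which is TFIIB (-0.65 ± 0.26), with a list median of -0.09. These 3 of 17 stand beside 16.6% of all genes in either direction and 9.13% lower.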

How the data were processed

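The authors deposited whole-number counts per gene, aligned with HISAT2 2.1.0 to GRCm38 and counted with featureCounts of Subread 1.6.2, per the submitters' processing notes. The deposited TPM file names StringTie, but its values equal the deposited counts divided by 1 length per gene and rescaled. The authors' deposited table gives a log2 fold change with its SE, a score (the Wald statistic), a p-value and a mean normalized count (a signal), per the file headers.

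Counts were tested on genotype alone with edgeR 4.0.16 in R 4.3.3 (quasi-likelihood test, TMM scaling, edgeR's low-count filter, Benjamini-Hochberg adjustment over 19244 genes, called under 0.05). The SE was obtained from the log2 fold change and the square root of the F statistic, and log2 CPM uses a prior count of 2. Ratios and neighbours in level were compared by exact permutation of libraries, and correlations with 100000 permutations. Alternatives were DESeq2 1.42.0, limma 3.58.1 (voom, and log2(TPM + 1) or log2(TPM + 0.1)), other scalings and filters, a covariate for litter date or replicate number, and leaving out libraries or dates. Added after the data were seen was a 3-level grouping of libraries: a DESeq2 refit with it matched 31181 of 31181 deposited log2 fold changes within 0.00555. It equals the litter date in 6 of 10 libraries. The scripts' tests were tested on simulated counts. Genes without a symbol (382 of 55536) took 0.0632% to 0.0945% of counts.

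The members, lists and tests were chosen with earlier results of these data known. The text names all members, Taf4b, the 3 genes most like each member (mean log2 CPM of at least 1) and the 2 genes of smallest p in each list; the other listed genes were named after their values were seen.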

Additional observations from a re-analysis of the deposited data

Results flagged for a closer look

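In 18 groups of 5 libraries (9 genes in each genotype), 3 held a library flagged by Dixon's test. The gap of that library to the nearest other, divided by the range of the group, exceeded the critical value. Chance alone gives this for about 1 in 20 groups if values are normally distributed. The 9 genes come from the same libraries, so these groups are not independent. The share of all genes flagged in this way is not given here, so the 3 do not set the members apart from other genes. Taf8 stood at 215 CPM in heterozygous library 3, the highest of its group, while the other 4 heterozygous libraries lay between 63.6 and 77.1 CPM. In deficient oocytes Taf8 was highest in library 4, at 78.4 CPM, against 62.0 to 66.6 CPM in the other 4. Taf10 was lowest among deficient libraries in library 5, at 112 CPM, against 174 to 189 CPM. Deficient library 5 also held 1610 CPM of erythroid markers, the highest of the deficient group, and the part of this in its Taf10 level was not tested.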

How the results depend on the processing

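Of the members' log2 fold changes, 7 kept their sign under all 27 alternatives. Taf6 turned to 0.13 by limma voom with quality weights, 0.054 without litter date 2 and 0.25 without heterozygous library 3 (-0.42 to 0.25 with 1 library left out). Taf3 turned to -0.11 without litter date 3, and ran from -0.0419 to 0.318 with 1 library left out. Taf5 was called by DESeq2 (1.06, adjusted p = 0.0328) and voom (1.21, adjusted p = 0.0393), and its adjusted p ran from 0.0328 to 0.961 over the 27. Members called was therefore 1 under these 2 tools and 0 otherwise, and the members' median was 0.34 by voom. Genes called numbered 0 by edgeR (3190 at an unadjusted p under 0.05), 251 with no low-count filter, 679 by DESeq2, 510 by voom, 3 with bias-adjusted deviances, 1 by limma on log2(TPM + 1) with no filter, 104 with the grouping behind the authors' fold changes, and 0 to 606 with 1 library left out, the 606 being without heterozygous library 1. The cause of these differences was not tested.

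Whether replicate numbers pair the libraries was not tested. Between libraries of the same number, correlations of deviations ran from -0.26 to 0.59 over 5 pairs, 3 of which share a litter date. In 1 pair the heterozygous library correlated best with the deficient library of its own number. With a replicate block, edgeR called 1 gene and 0 members.

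Neighbouring members that differed in TPM numbered 1 in the main order, 0 in heterozygous or deficient libraries alone (where 5 libraries allow no adjusted p under 0.05), 3 per kilobase of the longest coding transcript and 0 to 2 with 1 library left out. Without litter date 1, 2 and 3, in which the smallest possible p was 0.0286, 0.1 and 0.0286 and none of the adjusted p passed, the ratio differences were -2.64, -0.43 and -2.19 for Taf8 to Taf10, 0.83, 0.34 and 0.57 for Taf3 to Taf8, 1.11, 0.65 and 0.78 for Taf11 to Taf13, 1.51, 0.42 and 1.61 for Taf5 to Taf6 and 0.94, 0.54 and 0.82 for Taf1 to Taf2. With 1 library left out they ran from -2.23 to -1.18, 0.45 to 0.72, 0.68 to 0.95, 0.75 to 1.54 and 0.67 to 0.87 in the same order, and from -1.52 to -0.72 for Taf3 to Taf10, which passed without heterozygous library 1 or 5. Leaving out any 1 deficient library ended the call of each of the 5 ratios, and leaving out heterozygous library 3 or 4 ended that of Taf5 to Taf6.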
